A study of Mus musculus with 18 samples.

Results

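The genes described here encode 5 insulin-like growth factor (IGF)-binding proteins, Igfbp3, Igfbp4, Igfbp5, Igfbp6 and Igfbp7, and were chosen by name. Of these 5, 4 had a row among the 16248 genes of the expression table, and all 4 passed the filter on low values that left 13983 genes for testing. Igfbp6 had no row in the table and was not analysed here.

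The values are from bulk RNA sequencing (RNA-seq) of endothelial cells (ECs), which form the inner wall of blood vessels, sorted from breast tissue of female FVB mice in 6 groups of 3 libraries. Normal ECs were taken from fat pads of the mammary gland in wild type animals. MMTV-PyMT ECs came from the spontaneous tumours of MMTV-PyMT mice, treated from 9 weeks of age, in which a mouse mammary tumour virus promoter drives the polyoma middle T oncogene in the mammary epithelium. Implanted ECs came from tumours in mice labelled wild type, made by placing cells of MMTV-PyMT tumours, cultured for 2 days, with Matrigel in the fat pad of hosts 8 to 9 weeks old. Each tissue was injected with phosphate-buffered saline (PBS) or with cGAMP, a cyclic dinucleotide that binds and activates STING, and was taken 3 hours later. Live cells were gated as CD45- and CD31+, so that CD31, the product of Pecam1, was used in the sort and is no finding here. Expression is given as FPKM, the fragments per kilobase of gene length after scaling for library size, so that levels of different genes can be compared per length.

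IGF-binding proteins are secreted proteins that hold IGF-I and IGF-II in the circulation and around cells, and so limit or prolong the access of these growth factors to the IGF-I receptor. Proteases that cut the binding proteins release the ligand, and several of the proteins also bind the cell surface or the matrix without IGF. IGFBP3 and IGFBP5 can carry IGF in a ternary complex with the acid-labile subunit, IGFBP4 is the main substrate of the protease PAPP-A, IGFBP6 prefers IGF-II, and IGFBP7 binds IGFs weakly and is a known component of the vascular basement membrane. In the mammary gland IGFBP5 is known for its rise during involution, and IGFBP3 is known as a gene that responds to hypoxia and to p53.

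The libraries held between 9057157 and 12030919 reads, as recovered from the FPKM values, and the 4 genes had from 1112 reads (Igfbp3 in normal cGAMP 1) to 142390 reads (Igfbp5 in MMTV-PyMT PBS) per library. Counting error at the lowest of these was 3.00%, well under the spread between libraries. All 8 markers of an endothelial list were in the table, and their summed FPKM was between 644 and 1691 in every library. Markers of other cells were present as well. The sum over 9 mural cell markers was 1063 to 1189 FPKM in normal PBS ECs, against 256 to 350 in MMTV-PyMT and 289 to 325 in implanted PBS ECs. The sum over 8 epithelial or tumour cell markers was 326 to 436, 850 to 988 and 380 to 533 FPKM in the same order, and that over 8 fibroblast markers was 122 to 149, 163 to 256 and 286 to 325 FPKM. Not every fibroblast marker had this order, since Col1a1 was at 31.3 to 36.8, 67.5 to 111 and 175 to 205 FPKM, while Dcn was at 10.7 to 11.8 FPKM in normal and 1.92 to 2.76 in implanted PBS libraries, and Lum and Dpt were also lower in the latter. Leukocyte markers (6 of 7 in the table) summed to 16.4 to 226 FPKM, with the highest value in implanted cGAMP 2, and none of 5 adipocyte markers was in the table. In such bulk libraries, fewer cells of a type and less RNA per cell cannot be told apart, and the part of other cells in the results below was not tested except where values are given.

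The promoters of the 4 genes are shown because Igfbp3 and Igfbp7 were highest in the same groups while Igfbp4 and Igfbp5 were not. The sequences are from RefSeq (GRCm38.p6), the 250 bases before the annotated start, 5′ to 3′ on the strand of the gene, with the matches to the motifs below in capitals. Igfbp3 lies on chromosome 11 on the minus strand, and its printed promoter is chr11:7213924-7214173. Igfbp4 lies on chromosome 11 on the plus strand (chr11:99040994-99041243), Igfbp5 on chromosome 1 on the minus strand (chr1:72874866-72875115) and Igfbp7 on chromosome 5 on the minus strand (chr5:77408046-77408295).
Igfbp3: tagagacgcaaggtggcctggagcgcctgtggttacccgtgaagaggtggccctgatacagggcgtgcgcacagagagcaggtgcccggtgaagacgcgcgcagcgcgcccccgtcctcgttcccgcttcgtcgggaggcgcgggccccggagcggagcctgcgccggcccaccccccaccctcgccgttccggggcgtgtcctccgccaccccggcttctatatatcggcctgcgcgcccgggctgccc
Igfbp4: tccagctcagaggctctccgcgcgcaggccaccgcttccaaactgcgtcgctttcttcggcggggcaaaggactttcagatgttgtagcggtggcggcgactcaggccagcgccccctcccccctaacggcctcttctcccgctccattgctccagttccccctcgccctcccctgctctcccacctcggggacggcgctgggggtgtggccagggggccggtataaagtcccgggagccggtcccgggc
Igfbp5: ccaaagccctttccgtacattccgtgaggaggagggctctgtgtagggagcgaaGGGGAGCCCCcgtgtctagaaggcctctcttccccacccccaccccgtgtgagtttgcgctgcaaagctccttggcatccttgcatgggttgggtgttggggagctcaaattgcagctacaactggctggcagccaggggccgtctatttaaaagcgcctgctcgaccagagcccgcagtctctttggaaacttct
Igfbp7: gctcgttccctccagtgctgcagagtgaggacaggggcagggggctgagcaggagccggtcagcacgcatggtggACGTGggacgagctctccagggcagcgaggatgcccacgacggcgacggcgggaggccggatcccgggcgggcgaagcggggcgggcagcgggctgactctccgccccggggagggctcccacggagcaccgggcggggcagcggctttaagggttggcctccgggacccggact

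Of the printed bases, 73.2% (Igfbp3), 69.2% (Igfbp4), 58.8% (Igfbp5) and 74.0% (Igfbp7) were G or C, against a median of 52.4% over the same bases of 32851 promoters. The motifs were looked for on both strands in windows of 300 bases, the 250 shown and 50 after the start. The core of the interferon-stimulated response element (AAANNGAAA, in 10.6% of all promoters) and the GAS element that STAT proteins bind (TTCNNNGAA, in 8.30%) had no match in any of the 4. An NF-kB site, searched by its usual consensus and held by 4.51% of all promoters, was matched once, in Igfbp5, from base −196. The core of the hypoxia response element (ACGTG, in 19.6% of all promoters) was matched once, in Igfbp7, from base −175. No motif overlapped another, and a match describes letters only.

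The first question was how the ECs of the 3 tissues differed under PBS. Of the 4 tested genes, 2 were higher and 1 was lower in MMTV-PyMT than in normal ECs, where 29.8% of all tested genes were higher and 26.6% lower (adjusted p under 0.05, limma with Benjamini-Hochberg adjustment over all tested genes). In implanted against normal ECs 3 were higher and 1 was lower, with 25.0% and 23.6% over all genes. In implanted against MMTV-PyMT ECs 3 were higher and 1 was lower, with 20.8% and 24.6%. The second question was the effect of cGAMP within a tissue. It changed 1 of the 4 genes in each tissue, Igfbp4 (lower) in normal ECs, Igfbp3 (higher) in MMTV-PyMT ECs and Igfbp5 (lower) in implanted ECs. Over all genes, cGAMP gave 13.7% higher and 18.2% lower for normal tissue, 7.42% and 4.57% for MMTV-PyMT tumours, and 20.3% and 18.8% for implanted tumours, so that 1 of 4 was close to the background share in normal and implanted ECs. The third question was whether the effect of cGAMP differed between tissues. For MMTV-PyMT against normal ECs, 2 of 4 genes had a higher effect and 0 a lower one, with 5.48% and 2.90% over all genes. For implanted against normal ECs (12.5% and 6.09% over all genes) and for implanted against MMTV-PyMT ECs (7.34% and 3.72%) limma passed 0 of 4 genes, with 0 and 1 at an unadjusted p under 0.05, and 0 and 0 passing with voom. The tissue comparisons share PBS libraries with each other and with the effects of cGAMP, so their calls are not independent.

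The split of all passing genes into higher and lower depended on how libraries were scaled. Scaling by total reads in place of the deposited scaling moved the median log2 change of all genes by −0.233 to −0.006 over the 9 comparisons, and moved the share of higher genes among those passing from 61.87% to 27.67% (cGAMP in MMTV-PyMT ECs), from 51.99% to 22.26% (cGAMP in implanted ECs), from 51.43% to 34.24% (implanted against normal) and from 45.83% to 30.71% (implanted against MMTV-PyMT). For the differences between effects of cGAMP it moved from 65.41% to 38.76%, from 67.29% to 26.18% and from 66.36% to 37.38%. Scaling to the summed endothelial markers, described below, moved the median by −0.509 to 0.329 and the share of higher genes from 45.83% to 8.94% (implanted against MMTV-PyMT), from 52.8% to 76.88% (MMTV-PyMT against normal), from 51.43% to 30.07% (implanted against normal), from 43.07% to 67.27% (cGAMP, normal), from 61.87% to 30.14% (cGAMP, MMTV-PyMT) and from 51.99% to 40.18% (cGAMP, implanted). For the differences between effects it gave 17.39%, 39.81% and 80.07%, in the order above. Quantile normalization moved this share by more than 10 points for cGAMP in both tumours (49.4% for MMTV-PyMT, 39.08% for implanted) and for the 3 differences between effects (55.39%, 49.03% and 48.2%). Of the 11 differences between tissues that passed for the 4 genes, direction and call were kept in 306 of 308 alternative fits, and the exceptions, Igfbp4 and Igfbp7 in implanted against MMTV-PyMT ECs, are given below. Of the 28 alternatives for each difference, 18 left out a library, most of them from a group outside the comparison. Such a fit cannot move the change itself, only the spread it is set against.

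**Figure D1:**
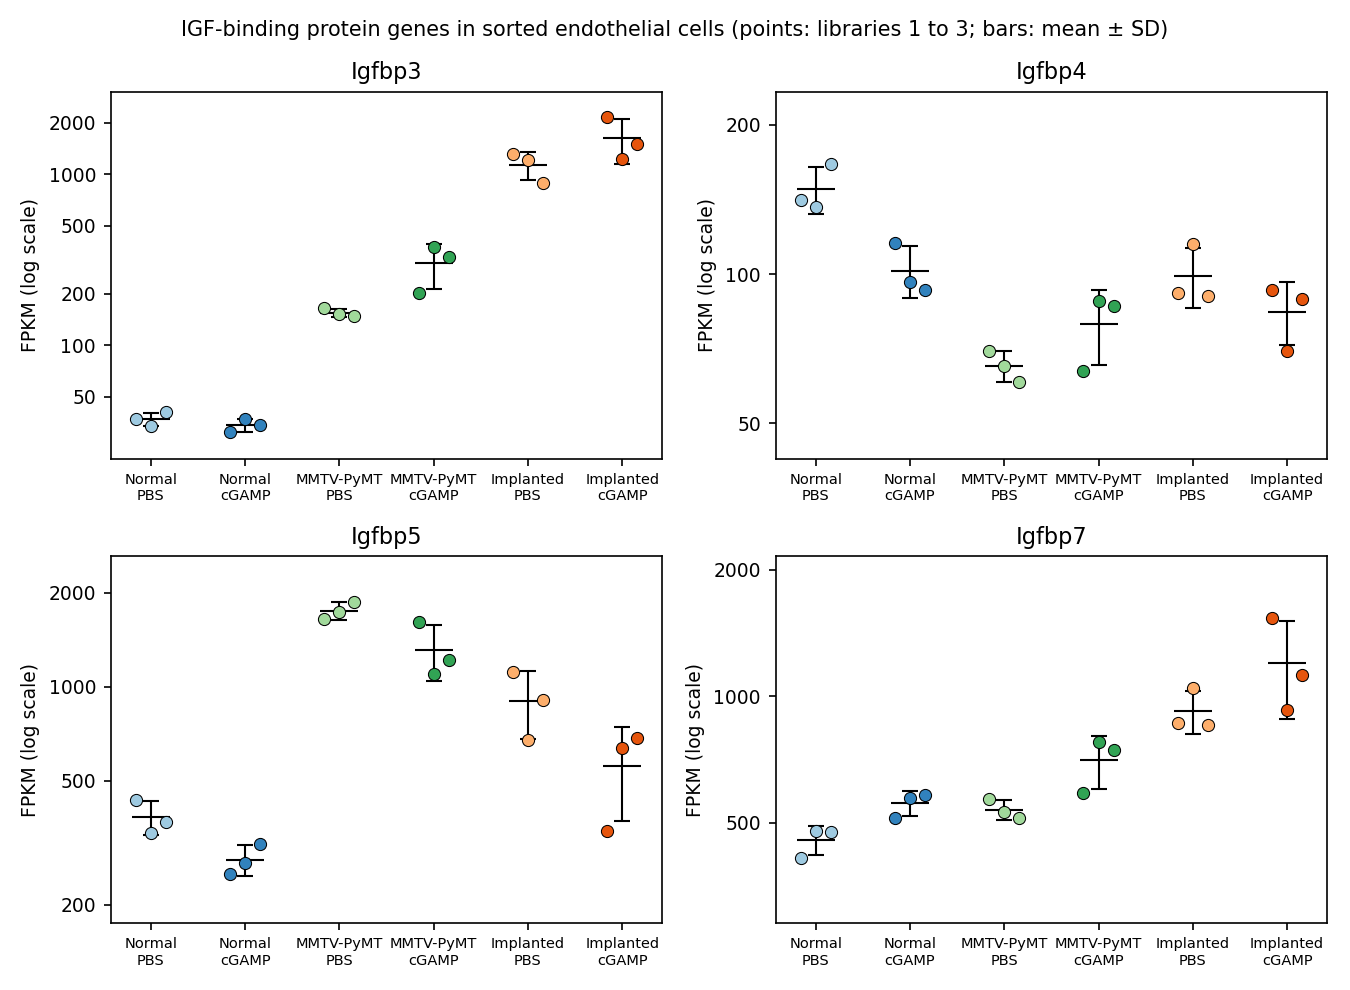
FPKM (log scale) of Igfbp3, Igfbp4, Igfbp5 and Igfbp7 in the 6 groups, with 1 point for each of the 3 libraries and bars for the mean ± SD. Igfbp3 was between 31.01 and 40.4 FPKM in all normal libraries and between 896 and 2166 in all implanted libraries, while Igfbp5 was highest in MMTV-PyMT PBS libraries, between 1644 and 1866.

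Igfbp3, whose product is the main carrier of IGF in serum, differed most between tissues. The gene (GENCODE M21, mm10) spans chr11:7206086-7213923 on the minus strand, with no annotated gene overlapping it, and 3539 bases separate it from Igfbp1, which had no row in the table. Under PBS its FPKM was 36.8, 33.6 and 40.4 in the 3 normal libraries. It was 164, 152 and 147 in MMTV-PyMT libraries and 1313, 1206 and 896 in implanted libraries. The 3 tissues did not overlap, and implanted ECs were the highest. The mean was 4.19 times the normal level in MMTV-PyMT ECs (log2 change of 2.04 ± 0.22 SE, adjusted p = 1.19e-06, limma) and 30.8 times in implanted ECs (4.89 ± 0.22, adjusted p = 2.39e-10, limma). Implanted exceeded MMTV-PyMT ECs by 2.85 ± 0.22 on the log2 scale (adjusted p = 1.23e-07, limma). Igfbp3 ranked 758th to 901st among 16248 genes by FPKM in normal PBS libraries, 121st to 153rd in MMTV-PyMT and 15th to 19th in implanted PBS libraries.

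After cGAMP, Igfbp3 was 203, 377 and 330 FPKM in the MMTV-PyMT libraries, all above the PBS libraries of that tissue, although library 1 was well below the other two. The log2 change was 0.92 ± 0.22 (adjusted p = 0.0105, limma), and the means were 303 ± 90.0 and 155 ± 8.75 FPKM (SD, n = 3). The call was lost without MMTV-PyMT cGAMP 2 (0.74, adjusted p = 0.0695) and without MMTV-PyMT cGAMP 3 (0.84, adjusted p = 0.0514), in a range of 0.000841 to 0.0695 over all alternatives (limma). In normal ECs Igfbp3 was 31.01, 36.9 and 34.2 FPKM after cGAMP and overlapped PBS (log2 change of −0.11 ± 0.22, adjusted p = 0.730, limma). In implanted ECs it was 2166, 1228 and 1506 FPKM, with library 2 within the PBS range and libraries 1 and 3 above it, and did not pass the test (0.50 ± 0.22, adjusted p = 0.0784, limma). Without implanted cGAMP 2 it passed (0.68, adjusted p = 0.0237), and without MMTV-PyMT cGAMP 1 its adjusted p was 0.0348, in a range of 0.0237 to 0.958 over all alternatives (limma). The effect of cGAMP was higher in MMTV-PyMT than in normal ECs by 1.03 ± 0.30 on the log2 scale (adjusted p = 0.0472, limma), close to the threshold, and this call was lost under 19 of 28 alternatives (adjusted p from 0.00709 to 0.115, limma). Of those 19, 14 left out 1 of the 18 libraries. The effect in implanted ECs differed from that in normal ECs by 0.61 (95% interval from −0.03 to 1.26) and from that in MMTV-PyMT ECs by −0.42 (−1.07 to 0.22) on the log2 scale.

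Beside Igfbp3 stands the sum over 7 tip-like EC markers, a list that includes Esm1, Apln and Cxcr4, genes of the leading cells of vessel sprouts. That sum ranged over 117 to 137 FPKM for normal PBS libraries, 125 to 139 for MMTV-PyMT and 579 to 703 for implanted ones. Within each of the 6 groups, the 3 libraries had the same order by Igfbp3 and by the tip-like sum, which was noticed among 24 pairs of a gene and a marker list after the values were seen. Between groups the sum and Igfbp3 did not always go together. MMTV-PyMT ECs had 4.19 times the Igfbp3 of normal ECs with a tip-like sum of nearly the same range. After cGAMP the mean tip-like sum was 585 FPKM in implanted ECs against 649 under PBS, while the mean of Igfbp3 was 1633 against 1138 FPKM. The tip-like markers did not move together there. Esm1 was lower, at 54.3 to 71.5 against 107 to 143 FPKM. Apln (35.9 to 66.8 against 69.8 to 119) and Kcne3 (25.7 to 35.4 against 39.4 to 66.0) were lower as well. Pgf was higher (13.6 to 29.6 against 11.2 to 13.3), and Angpt2, Cxcr4 and Dll4 overlapped PBS. In normal ECs the mean sum was 92.7 after cGAMP against 127 FPKM under PBS. The fibroblast sum had the same tissue order as Igfbp3 under PBS, and its mean was highest, 552 FPKM, in implanted cGAMP ECs, as that of Igfbp3 was. Within groups the order of libraries matched in 1 of 6, and the lowest library in 0 of the 4 tumour groups. Implanted cGAMP 2 had the highest fibroblast sum of its group, 741 FPKM, and the lowest Igfbp3, 1228 FPKM. In MMTV-PyMT ECs the mean fibroblast sum was 197 FPKM after cGAMP against 212 under PBS, while Igfbp3 was higher after cGAMP. The mural sum was lower in both tumours than in normal ECs, but the mural marker Abcc9 was at 53.4 to 66.8 FPKM in implanted against 36.3 to 43.2 in normal PBS libraries, and Kcnj8 at 13.6 to 15.3 against 10.7 to 14.4. The part of these cells in the Igfbp3 values was not tested.

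Igfbp5, a matrix-binding member of the family, was the most abundant of the 4 genes in MMTV-PyMT ECs. It spans chr1:72857932-72874884 on the minus strand with no overlapping gene, and Igfbp2 ends 5457 bases away. Under PBS its FPKM was 434, 341 and 370 in normal libraries and 1644, 1728 and 1866 in MMTV-PyMT libraries, where it ranked 11th to 13th of all genes. It was 1113, 674 and 909 in implanted libraries. Again the 3 tissues did not overlap, but here MMTV-PyMT ECs were the highest. MMTV-PyMT ECs held 4.58 times the normal level (log2 change of 2.20 ± 0.23, adjusted p = 1.13e-06, limma) and implanted ECs 2.36 times (1.21 ± 0.23, adjusted p = 0.000420, limma). Igfbp5 was lower in implanted than in MMTV-PyMT ECs, with a log2 change of −0.99 ± 0.23 (adjusted p = 0.00266, limma). The order of the tumours was thus opposite for Igfbp3 and Igfbp5, and the ratio of Igfbp3 to Igfbp5 within a library was 0.0789 to 0.09996 in MMTV-PyMT PBS and 0.985 to 1.79 in implanted PBS ECs, a ratio that library scaling cannot move and that was chosen after the values were seen.

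Igfbp5 was lower in mean after cGAMP in each tissue, but passed the test only in implanted ECs. It was 251, 273 and 314 FPKM in normal libraries, all below PBS (log2 change of −0.45 ± 0.23, adjusted p = 0.152, limma). In a fit of the 2 normal groups alone it passed (adjusted p = 0.0328), in a range of 0.0328 to 0.572 over all alternatives (limma). It was 1607, 1101 and 1215 FPKM in MMTV-PyMT libraries, also all below PBS (−0.43 ± 0.23, adjusted p = 0.248, limma). In implanted ECs it was 344, 637 and 687 FPKM, with library 1 far below the others and library 3 above the lowest PBS library. There the log2 change was −0.72 ± 0.23 (adjusted p = 0.0208, limma). The change was −0.41 (adjusted p = 0.121) without implanted cGAMP 1, −0.555 without implanted PBS 1 and −0.70 without implanted PBS 3, none of them passing (limma). In a fit of the 2 implanted groups alone the adjusted p was 0.118, in a range of 0.00109 to 0.121 over all alternatives (limma). The effects of cGAMP on Igfbp5 differed between tissues by 0.02, −0.28 and −0.29 on the log2 scale, with 95% intervals from −0.68 to 0.71, −0.97 to 0.42 and −0.98 to 0.40 (MMTV-PyMT minus normal, implanted minus normal, implanted minus MMTV-PyMT).

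The sum of epithelial or tumour cell markers is given beside Igfbp5. Its mean was highest in MMTV-PyMT PBS libraries, as that of Igfbp5 was. Under PBS, Epcam, Krt8, Krt18 and Cdh1 were higher in MMTV-PyMT than in normal and implanted libraries, without overlap. Krt5, Krt14 and Csn2 overlapped normal PBS libraries, and Wap overlapped implanted PBS libraries. In each of the 4 tumour groups the library with the lowest Igfbp5 also had the lowest epithelial sum. This was noticed among the 24 pairs after the values were seen, the lowest library did not match in the normal groups, and over all 6 groups the highest library was the same in 3 and the full order in 2. In implanted cGAMP 1, the library with the lowest Igfbp5 of the tumour libraries, the epithelial sum was 257 FPKM and the endothelial sum was 1691 FPKM, the lowest and the highest of all 18 libraries. In MMTV-PyMT PBS libraries Epcam was at 186 to 213 FPKM and Krt18 at 253 to 275 FPKM, against 1644 to 1866 for Igfbp5. The cells had been taken with CD31 beads and then by a CD31+ gate. In the MMTV-PyMT PBS libraries the epithelial sum was 850 to 988 FPKM and the endothelial sum was 644 to 795 FPKM. The part of these cells in the Igfbp5 values was not tested.

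Igfbp4, the substrate of PAPP-A, was the gene that was lower in both tumours. It spans chr11:99041244-99054392 on the plus strand with no overlapping gene. Under PBS its FPKM was 141, 137 and 166 in normal libraries, 69.9, 65.3 and 60.7 in MMTV-PyMT libraries and 91.6, 115 and 90.4 in implanted libraries. Every tumour library was below every normal library, and MMTV-PyMT ECs were the lowest. The log2 change was −1.17 ± 0.14 in MMTV-PyMT ECs (adjusted p = 5.25e-06, limma) and −0.58 ± 0.14 in implanted ECs (adjusted p = 0.00310, limma), relative to normal. Implanted exceeded MMTV-PyMT ECs by 0.59 ± 0.14 (adjusted p = 0.00346, limma), but by −0.06 when libraries were scaled to their summed endothelial markers (adjusted p = 0.722, limma), a scaling that moved the median of all genes by −0.51.

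After cGAMP, Igfbp4 was 116, 96.3 and 92.8 FPKM in normal libraries, all below the PBS libraries. The log2 change was −0.54 ± 0.14 (adjusted p = 0.00901, limma), and this call held under all 28 alternatives, with adjusted p from 0.00394 to 0.0493. Of the 28, 18 left out a library, most of them from groups outside this comparison. In MMTV-PyMT ECs Igfbp4 was 63.6, 88.1 and 86.2 FPKM, with library 1 inside the PBS range, and did not pass (0.26 ± 0.14, adjusted p = 0.255, limma, and −0.04 with endothelial scaling). In implanted ECs it was 93.0, 70.1 and 88.9 FPKM and overlapped PBS (−0.24 ± 0.14, adjusted p = 0.207, limma). There it passed with quantile normalization (−0.66), with scaling by total reads (−0.55) and with endothelial scaling (−0.45), in a range of 0.000500 to 0.574 for the adjusted p. The effect of cGAMP was higher in MMTV-PyMT than in normal ECs by 0.80 ± 0.20 (adjusted p = 0.0229, limma). This call was lost in 7 of 28 alternatives, 6 of them leaving out a library (normal PBS 3, normal cGAMP 2 or 3, MMTV-PyMT PBS 3, MMTV-PyMT cGAMP 2 or 3), with adjusted p from 0.00607 to 0.201. Endothelial scaling gave 0.40. The effect in implanted ECs differed from that in normal ECs by 0.31 (95% interval from −0.12 to 0.73) and from that in MMTV-PyMT ECs by −0.50 (−0.93 to −0.07, adjusted p = 0.130, limma).

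Igfbp7, whose product lies in the basement membrane of vessels and binds CD93, was abundant in ECs of every tissue. It spans chr5:77349240-77408041 on the minus strand, and 85 of its 1209 exon bases overlap exons of Polr2b on the other strand. Whether the counting used strand is not given in the sources used here, so reads from those bases are uncertain. Under PBS its FPKM was 412, 477 and 474 in normal libraries, 569, 529 and 512 in those from MMTV-PyMT tumours and 865, 1046 and 855 in implanted libraries. Implanted ECs were the highest without overlap, and MMTV-PyMT ECs lay just above normal ECs. Implanted exceeded normal ECs by 1.02 ± 0.16 on the log2 scale (adjusted p = 6.40e-05, limma) and MMTV-PyMT ECs by 0.77 ± 0.16 (adjusted p = 0.000930, limma). The difference of MMTV-PyMT from normal ECs did not pass (0.24 ± 0.16, 95% interval from −0.09 to 0.57, adjusted p = 0.205, limma), and passed in a fit of those groups alone (adjusted p = 0.0495).

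Igfbp7 was higher in mean after cGAMP in each tissue, and passed the test in none. Its FPKM was 514, 571 and 583 in normal libraries and 588, 777 and 745 in MMTV-PyMT libraries, in both tissues above every PBS library. It was 1538, 928 and 1123 in implanted libraries, where library 2 overlapped PBS. The log2 changes were 0.29, 0.38 and 0.35, each ± 0.16, with adjusted p = 0.173, 0.131 and 0.0906 (limma, normal, MMTV-PyMT and implanted). The change in implanted ECs was −0.13 with quantile normalization (adjusted p = 0.421, in a range of 0.0139 to 0.859 over all alternatives, limma), and it passed without implanted cGAMP 2 (0.52, adjusted p = 0.0139, limma). The effects in the 3 tissues differed by −0.03 to 0.09 on the log2 scale, with 95% intervals that reach from −0.50 to 0.56 at their widest.

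**Figure D2:**
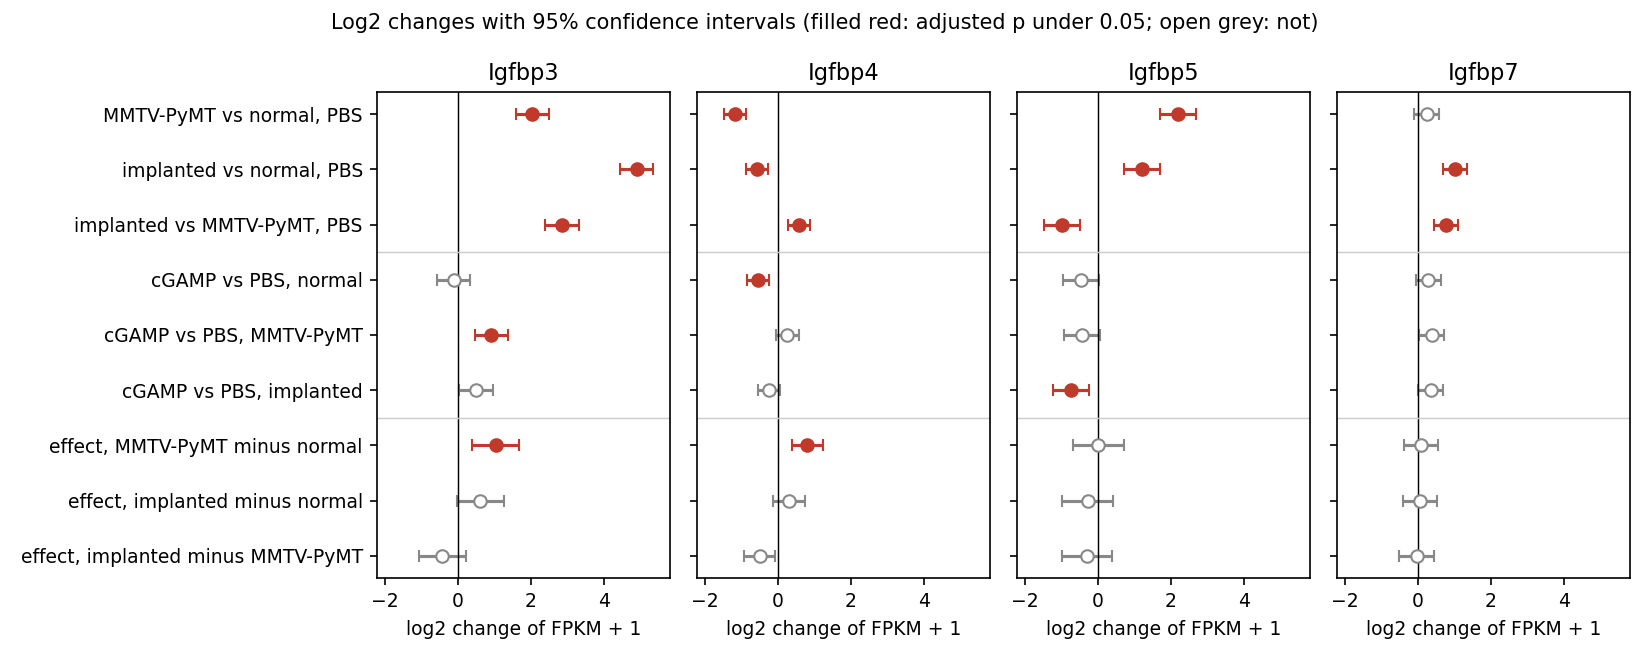
Log2 changes of FPKM + 1 with 95% confidence intervals (limma) for 4 genes in 9 comparisons, filled where the adjusted p was under 0.05 and open where not. Changes between tissues reached 4.89 (Igfbp3, implanted against normal), while changes after cGAMP lay between −0.72 and 0.92.

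Igfbp7 followed the endothelial markers within groups but not between them. In each of the 6 groups the 3 libraries had the same order by Igfbp7 and by the summed endothelial markers. This was noticed among the 24 pairs after the values were seen, and both share the library scaling. The mean endothelial sum was 948 FPKM in normal PBS, 710 in MMTV-PyMT PBS and 880 in normal cGAMP ECs. The mean of Igfbp7 was 455, 537 and 556 FPKM in these groups, so it rose where the sum fell. Igfbp7 was 47.3%, 48.0% and 48.4% of the endothelial sum in normal PBS libraries, and 61.6%, 65.5% and 62.4% after cGAMP. It was 71.6%, 76.6% and 79.6% in MMTV-PyMT PBS libraries, and 80.6%, 77.4% and 82.1% after cGAMP. It was 79.5%, 82.8% and 85.4% in implanted PBS libraries, and 91.0%, 89.9% and 90.7% after cGAMP. On this scale the cGAMP libraries lay above all PBS libraries in normal and in implanted ECs. The tissue means under PBS kept their order, but the separation changed. Every tumour PBS library was above every normal one, while the tumours now overlapped slightly. The highest MMTV-PyMT PBS share (79.55%) exceeded the lowest implanted PBS share (79.47%). A fit of all genes with libraries scaled to the summed endothelial markers, added after the values were seen, gave Igfbp7 a log2 change of 0.40 ± 0.11 after cGAMP in normal ECs (adjusted p = 0.0192). The change was 0.08 ± 0.11 for MMTV-PyMT tumours (adjusted p = 0.605) and 0.13 ± 0.11 for implanted tumours (adjusted p = 0.392). Under PBS the same fit gave 0.66 ± 0.11 for MMTV-PyMT against normal ECs (adjusted p = 0.000101), 0.78 ± 0.11 for implanted against normal ECs (2.22e-05) and 0.12 ± 0.11 for implanted against MMTV-PyMT ECs (0.354). The adjusted p ranged from 0.0192 to 0.388 for cGAMP in normal ECs and from 0.000101 to 0.466 for MMTV-PyMT against normal ECs over all alternatives. The endothelial genes of the list can themselves change with tissue or cGAMP, and this scaling moved the median of all genes by −0.51 to 0.33 in the 9 comparisons.

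With endothelial scaling the differences of Igfbp3 and Igfbp5 between tissues kept their direction and passed, while those of Igfbp4 and Igfbp7 in implanted against MMTV-PyMT ECs did not pass. Igfbp3 was higher by 2.46 ± 0.15 in MMTV-PyMT and by 4.66 ± 0.15 in implanted than in normal ECs, and Igfbp5 by 2.62 ± 0.35 and 0.98 ± 0.35. Igfbp3 rose after cGAMP in MMTV-PyMT ECs on this scale as well (0.62 ± 0.15, adjusted p = 0.0116, limma), from 20.7%, 22.1% and 22.9% of the endothelial sum to 27.8%, 37.6% and 36.3%. Igfbp4 fell in normal ECs (−0.44 ± 0.14, adjusted p = 0.0354, limma). The fall of Igfbp5 in implanted ECs did not pass (−0.94 ± 0.35, adjusted p = 0.0531, limma), with shares of 102%, 53.3% and 90.8% under PBS and 20.4%, 61.8% and 55.5% after cGAMP.

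**Figure D3:**
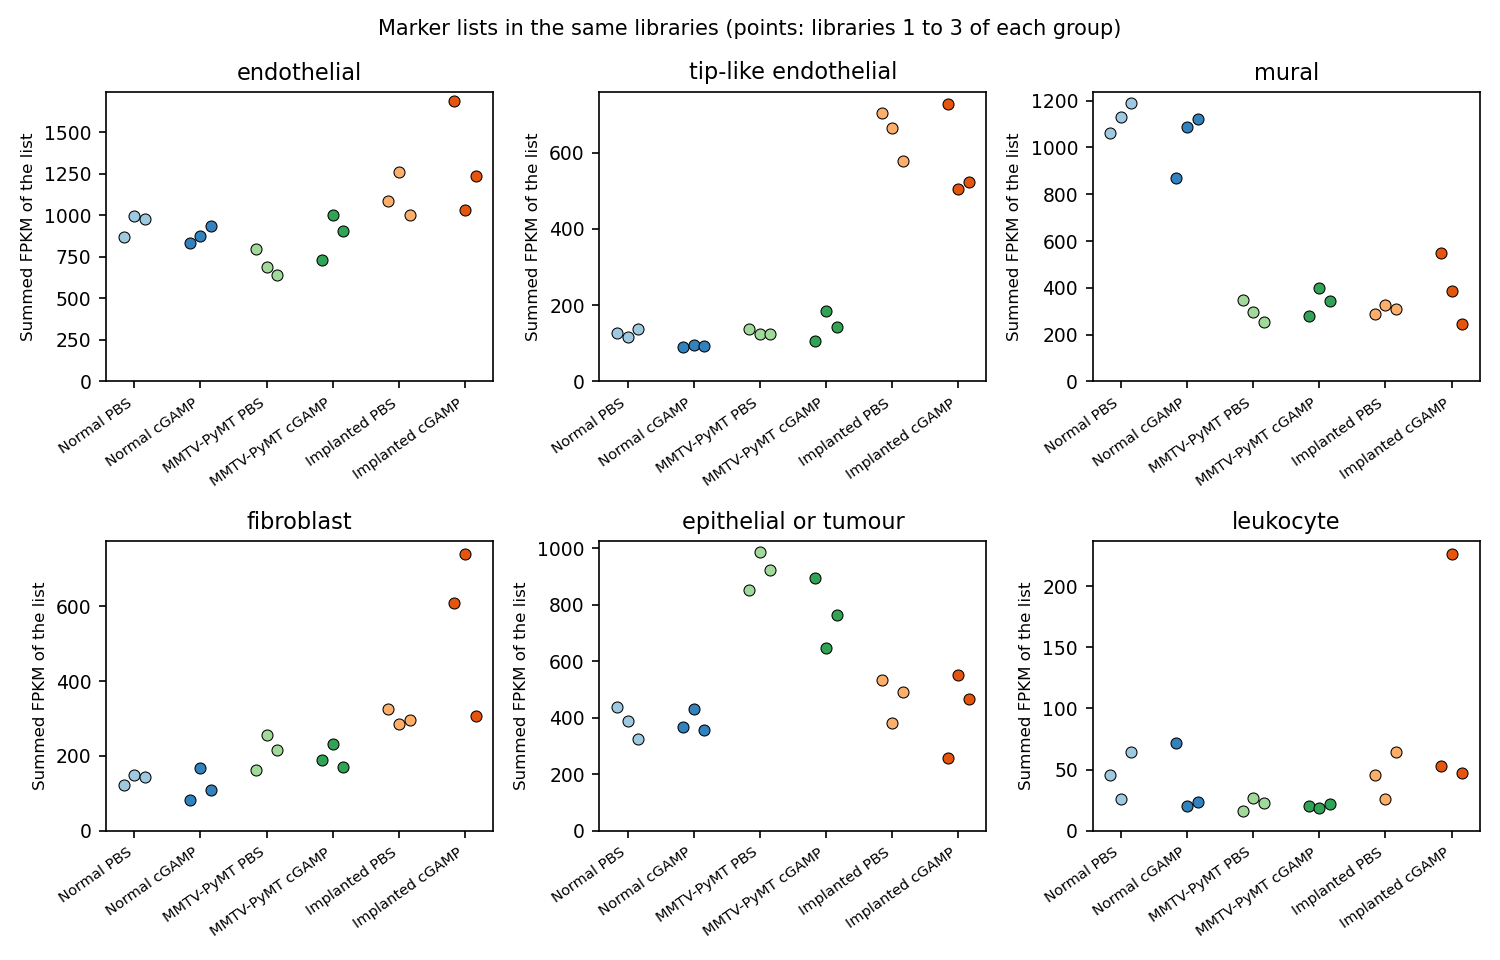
Summed FPKM of 6 marker lists in each library, with 1 point for each of the 3 libraries of a group and each axis starting at 0. Mural markers were 1063 to 1189 in normal PBS and 289 to 325 in implanted PBS libraries, and tip-like markers were 579 to 703 in implanted PBS libraries.

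The make-up of the family differed between the tissues. The 4 genes summed to 1021 ± 31.2 FPKM for normal PBS ECs, 2503 ± 73.5 for MMTV-PyMT and 3057 ± 316 for implanted PBS ECs (SD, n = 3). In normal PBS ECs Igfbp7 held 44.6% ± 4.05 and Igfbp5 37.3% ± 4.36 of this sum, with 14.5% ± 1.16 for Igfbp4 and 3.61% ± 0.224 for Igfbp3 (SD, n = 3). Igfbp5 alone held 69.7% ± 2.49 in MMTV-PyMT PBS ECs. In implanted PBS ECs Igfbp3 (37.0% ± 3.88), Igfbp7 (30.4% ± 4.46) and Igfbp5 (29.4% ± 6.24) had like shares (SD, n = 3). Such shares do not depend on how libraries are scaled. They do depend on gene length, since in reads not divided by length Igfbp5, the longest, had 63.3%, 88.0% and 51.0% in the 3 tissues.

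The sum of the family stayed in a like range after cGAMP, at 971 ± 56.4, 2394 ± 61.4 and 3470 ± 642 FPKM in normal, MMTV-PyMT and implanted ECs (SD, n = 3), while its make-up was different. The share of Igfbp5 was 27.5% to 30.6% after cGAMP against 34.5% to 42.4% under PBS in normal ECs, 47.0% to 65.3% against 67.2% to 72.2% in MMTV-PyMT ECs, and 8.31% to 22.3% against 22.2% to 33.0% in implanted ECs. It was lower without overlap in normal and MMTV-PyMT ECs, and overlapped in implanted ECs. The share of Igfbp7 was 56.4% to 58.5% after cGAMP against 40.3% to 48.3% in normal ECs. The share of Igfbp3 was 8.25% to 16.1% after cGAMP against 5.69% to 6.72% in MMTV-PyMT ECs, and 42.9% to 52.3% against 32.6% to 39.7% in implanted ECs. These shares were not tested and are given as a description.

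**Figure D4:**
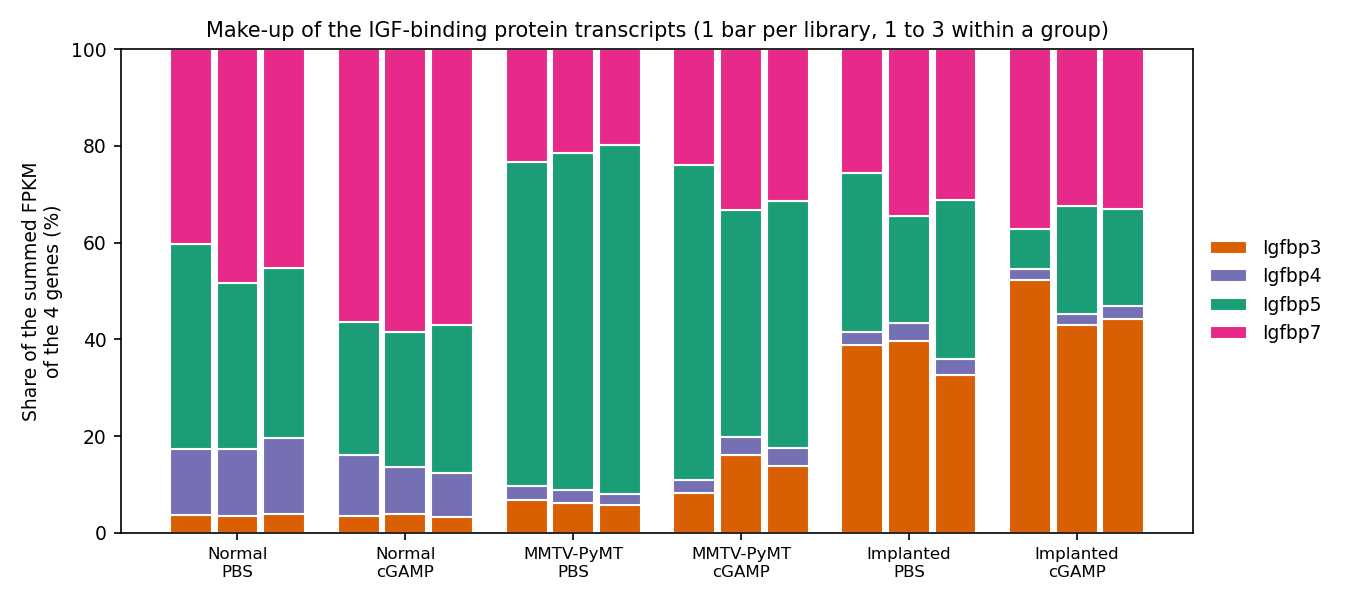
Share (%) of the summed FPKM of Igfbp3, Igfbp4, Igfbp5 and Igfbp7 held by each gene, with 1 bar for each of 18 libraries. Igfbp7 and Igfbp5 made up most of the sum in normal libraries, Igfbp5 held 67.2% to 72.2% in MMTV-PyMT PBS libraries, and Igfbp3 held 32.6% to 52.3% in implanted libraries.

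The order of the 6 groups by mean level was different for each gene. For Igfbp3 it ran from implanted cGAMP over implanted PBS, MMTV-PyMT cGAMP and MMTV-PyMT PBS to normal PBS and normal cGAMP, with overlap of neighbours within implanted and within normal ECs. For Igfbp5 it ran from MMTV-PyMT PBS over MMTV-PyMT cGAMP, implanted PBS, implanted cGAMP and normal PBS to normal cGAMP. MMTV-PyMT cGAMP overlapped implanted PBS, implanted PBS overlapped implanted cGAMP, and implanted cGAMP overlapped normal PBS. For Igfbp4, normal PBS stood apart at the top, and every other group overlapped its neighbour in the order. For Igfbp7, implanted cGAMP overlapped implanted PBS and normal cGAMP overlapped MMTV-PyMT PBS, and the other neighbours did not overlap. Across the 18 libraries Pearson's r of log2(FPKM + 1) was 0.91 between Igfbp3 and Igfbp7 and −0.73 between Igfbp4 and Igfbp5. These values describe 18 points that fall into 6 groups and share their library scaling.

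Other genes of the IGF system came from 6 lists with 34 genes, of which 30 were in the table and 29 were tested. Under PBS, 6 of the 29 were higher and 12 lower in MMTV-PyMT than in normal ECs, with a median log2 change of −0.367 against 0.016 for all tested genes, of which 29.8% were higher and 26.6% lower. In implanted against normal ECs, 10 were higher and 10 lower (median of 0.066 against 0.010, with 25.0% and 23.6% of all genes). In implanted against MMTV-PyMT ECs, 14 were higher and 4 lower (0.258 against −0.010, with 20.8% and 24.6%). After cGAMP, 1 was higher and 10 lower in normal ECs (−0.255 against −0.045, with 13.7% and 18.2%), 3 and 1 in MMTV-PyMT ECs (0.104 against −0.037, with 7.42% and 4.57%), and 5 and 6 in implanted ECs (0.034 against −0.014, with 20.3% and 18.8%). The effect of cGAMP was higher for 3 and lower for 0 of the 29 in MMTV-PyMT against normal ECs (median of 0.374 against 0.012, with 5.48% and 2.90% of all genes). It was higher for 7 and lower for 1 in implanted against normal ECs (0.025 against 0.038, with 12.5% and 6.09%), and higher for 2 and lower for 4 in implanted against MMTV-PyMT ECs (−0.131 against 0.024, with 7.34% and 3.72%).

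The remaining family member in the table, Igfbp2, was low in normal (2.95 ± 0.478 FPKM) and MMTV-PyMT PBS ECs (4.46 ± 2.66) and higher in implanted PBS ECs (32.8 ± 8.35; SD, n = 3). Its log2 change was 3.08 ± 0.38 against normal (adjusted p = 5.91e-06, limma) and 2.73 ± 0.38 against MMTV-PyMT ECs (adjusted p = 3.49e-05, limma). Its neighbour Igfbp5 had the other order of the tumours. Igfbp2 passed in none of the cGAMP comparisons, with values of 14.1 to 23.5 FPKM in implanted cGAMP against 26.0 to 42.1 in implanted PBS libraries.

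Among ligands and receptors, 5 of 6 genes were tested. Igf2, a ligand, was at 5.94 ± 0.648 FPKM in normal PBS ECs and at 0.244 ± 0.0800 and 0.144 ± 0.0815 in MMTV-PyMT and implanted PBS ECs (SD, n = 3), so that tumour libraries had as few as 3 reads. Its log2 change in MMTV-PyMT against normal ECs was −2.48 ± 0.14 (adjusted p = 2.37e-09, limma), on a scale that understates changes of low genes. Igf2 also fell after cGAMP in normal ECs (−0.80 ± 0.14, adjusted p = 0.000484, limma), to 3.05 ± 0.938 FPKM. The other ligand, Igf1, was between 4.15 and 9.08 FPKM in every library. The receptors Igf1r and Igf2r, the second of which removes IGF-II from the cell surface, were at 11.1 ± 0.0473 and 38.3 ± 2.02 FPKM in normal PBS ECs. Both of these and Igf1 are given as the main ligand and receptors, whatever their change. Under PBS the mean of Igf1 was 7.54, 5.58 and 4.36 FPKM in normal, MMTV-PyMT and implanted ECs. Igf1r was at 6.67 and 7.53 FPKM in MMTV-PyMT and implanted PBS ECs, and Igf2r at 39.0 and 47.7 FPKM. Of the 5 tested genes, 0 were higher and 2 lower in MMTV-PyMT against normal ECs under PBS. In implanted against normal ECs 2 were higher and 3 lower. Igf1 fell after cGAMP in normal ECs (−0.53 ± 0.15, adjusted p = 0.0159, limma). Insr, the insulin receptor, rose after cGAMP in MMTV-PyMT ECs (0.73 ± 0.19, adjusted p = 0.0186, limma), a call lost when any of 4 libraries was left out (adjusted p up to 0.109). It was also lost with endothelial scaling (adjusted p = 0.0535, limma).

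Genes that act on the binding proteins moved in both directions. Pappa, the gene of PAPP-A, was low in normal PBS ECs (1.27 ± 0.141 FPKM) and near the floor in tumours. It was at 0.0298 ± 0.00325 FPKM in MMTV-PyMT PBS ECs, with 4 reads per library, and at 0.233 ± 0.0792 in implanted PBS ECs (SD, n = 3). Pappa was named here after its values were seen. Stc1, an inhibitor of PAPP-A, rose after cGAMP in each tissue, with means of 12.3 ± 0.748 (PBS) and 40.03 ± 9.17 FPKM (cGAMP) for normal, 23.0 ± 4.52 and 42.4 ± 2.65 for MMTV-PyMT and 53.6 ± 10.8 and 153 ± 54.2 for implanted ECs (SD, n = 3). The log2 changes were 1.61 (adjusted p = 3.87e-05), 0.87 (0.0125) and 1.46 (4.17e-05), each ± 0.21, with limma, and the one in MMTV-PyMT ECs was lost when any of 3 libraries was left out (adjusted p up to 0.0615). Stc2, the related inhibitor, was lower in tumours, with 20.4 ± 4.93 FPKM for normal, 4.15 ± 0.630 for MMTV-PyMT and 1.95 ± 0.410 for implanted PBS ECs. Its log2 changes from normal were −2.03 ± 0.21 (adjusted p = 8.08e-07, limma) and −2.84 ± 0.21 (adjusted p = 2.15e-08, limma). Htra1, a secreted protease, was lower in MMTV-PyMT than in normal ECs by a log2 change of −1.89 ± 0.21 (adjusted p = 2.12e-06, limma). Its level was low in both tumours, at 39.3 ± 2.84, 9.88 ± 1.42 and 8.05 ± 1.52 FPKM in normal, MMTV-PyMT and implanted PBS ECs (SD, n = 3). Adam12, a metalloprotease that can cut IGFBP3 and IGFBP5, was higher in implanted than in MMTV-PyMT ECs by 1.63 ± 0.19 (adjusted p = 8.43e-06, limma), at 13.9 ± 1.06 against 3.79 ± 0.0614 FPKM.

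Of the receptor adaptors, 5 of 6 were tested. Irs1, which couples the receptor to PI3-kinase, fell after cGAMP in implanted ECs from 5.03 ± 1.03 to 1.74 ± 0.624 FPKM (−1.15 ± 0.16, adjusted p = 4.10e-05, limma). This effect was lower than in MMTV-PyMT ECs by 0.93 ± 0.23 (adjusted p = 0.0164, limma), and that of the adaptor Gab1 was lower by 0.86 ± 0.15 (adjusted p = 0.00182, limma), both lost with endothelial scaling (adjusted p = 0.301 and 0.177). Grb10, an adaptor that dampens receptor signalling, and Igf2r had a higher effect of cGAMP in MMTV-PyMT than in normal ECs, by 0.79 ± 0.21 and 0.42 ± 0.11 (adjusted p = 0.0295 and 0.0241, limma). Igf2 had one higher by 0.87 ± 0.20 (adjusted p = 0.0136, limma), lost with voom (adjusted p = 0.125) and with a pseudocount of 0.1 (adjusted p = 0.11, limma). Igf2 was near the floor in MMTV-PyMT ECs, with means of 0.244 FPKM under PBS and 0.312 after cGAMP. It could hardly fall there on this scale, so the difference rests on its fall in normal ECs. The call was lost for Grb10 when any of 7 libraries was left out and for Igf2r when any of 5 was. That of Igf2r was also lost with quantile normalization (adjusted p = 0.0607, limma) and with scaling by total reads (adjusted p = 0.147, limma). The calls of all 3 genes were lost with endothelial scaling.

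Surface partners of the family numbered 4. Cd93, which binds IGFBP7, was higher in implanted than in normal PBS ECs by 0.93 ± 0.15 (adjusted p = 0.000121, limma), and Tmem219, a receptor of IGFBP3, rose after cGAMP in implanted ECs from a mean of 4.11 to 8.27 FPKM (0.86 ± 0.09, limma). Both were named as partners of the 4 genes after their values were seen. Of these 4 partners, 1 was higher and 2 lower in MMTV-PyMT than in normal ECs (29.8% and 26.6% over all genes), 1 and 1 in implanted against normal (25.0% and 23.6%), and 2 and 1 in implanted against MMTV-PyMT ECs (20.8% and 24.6%). After cGAMP 1 was lower in normal ECs (18.2% over all genes) and 2 were higher in implanted ECs (20.3%).

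Proteins with an IGFBP-like domain numbered 8, all tested. Esm1, or endocan, was at 10.9 ± 1.05, 7.02 ± 1.90 and 129 ± 19.3 FPKM in normal, MMTV-PyMT and implanted PBS ECs (SD, n = 3). Its log2 change in implanted ECs was 3.44 ± 0.29 against normal (adjusted p = 9.42e-08, limma) and 4.04 ± 0.29 against MMTV-PyMT ECs (adjusted p = 5.81e-08, limma). Esm1 fell after cGAMP in implanted ECs (−1.08 ± 0.29, adjusted p = 0.00691, limma). Crim1, a membrane protein that tethers growth factors, rose after cGAMP in MMTV-PyMT ECs (0.71 ± 0.18, adjusted p = 0.0144, limma), a call lost when any of 3 libraries was left out. The rise was not limited to that tissue. In implanted ECs Crim1 was at 80.4 to 137 FPKM after cGAMP against 42.5 to 53.2 under PBS. In normal ECs it was at 67.0 to 72.6 against 59.8 to 65.6 FPKM. Ccn2, a matricellular protein, fell after cGAMP in normal ECs (−0.73 ± 0.19, adjusted p = 0.00881, limma). The effect of cGAMP on Ccn2, on the related Ccn3 and on Crim1 was higher in implanted than in normal ECs by 1.13 ± 0.27, 1.11 ± 0.30 and 0.93 ± 0.25 (adjusted p = 0.00839, 0.0166 and 0.0152, limma).

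**Figure D5:**
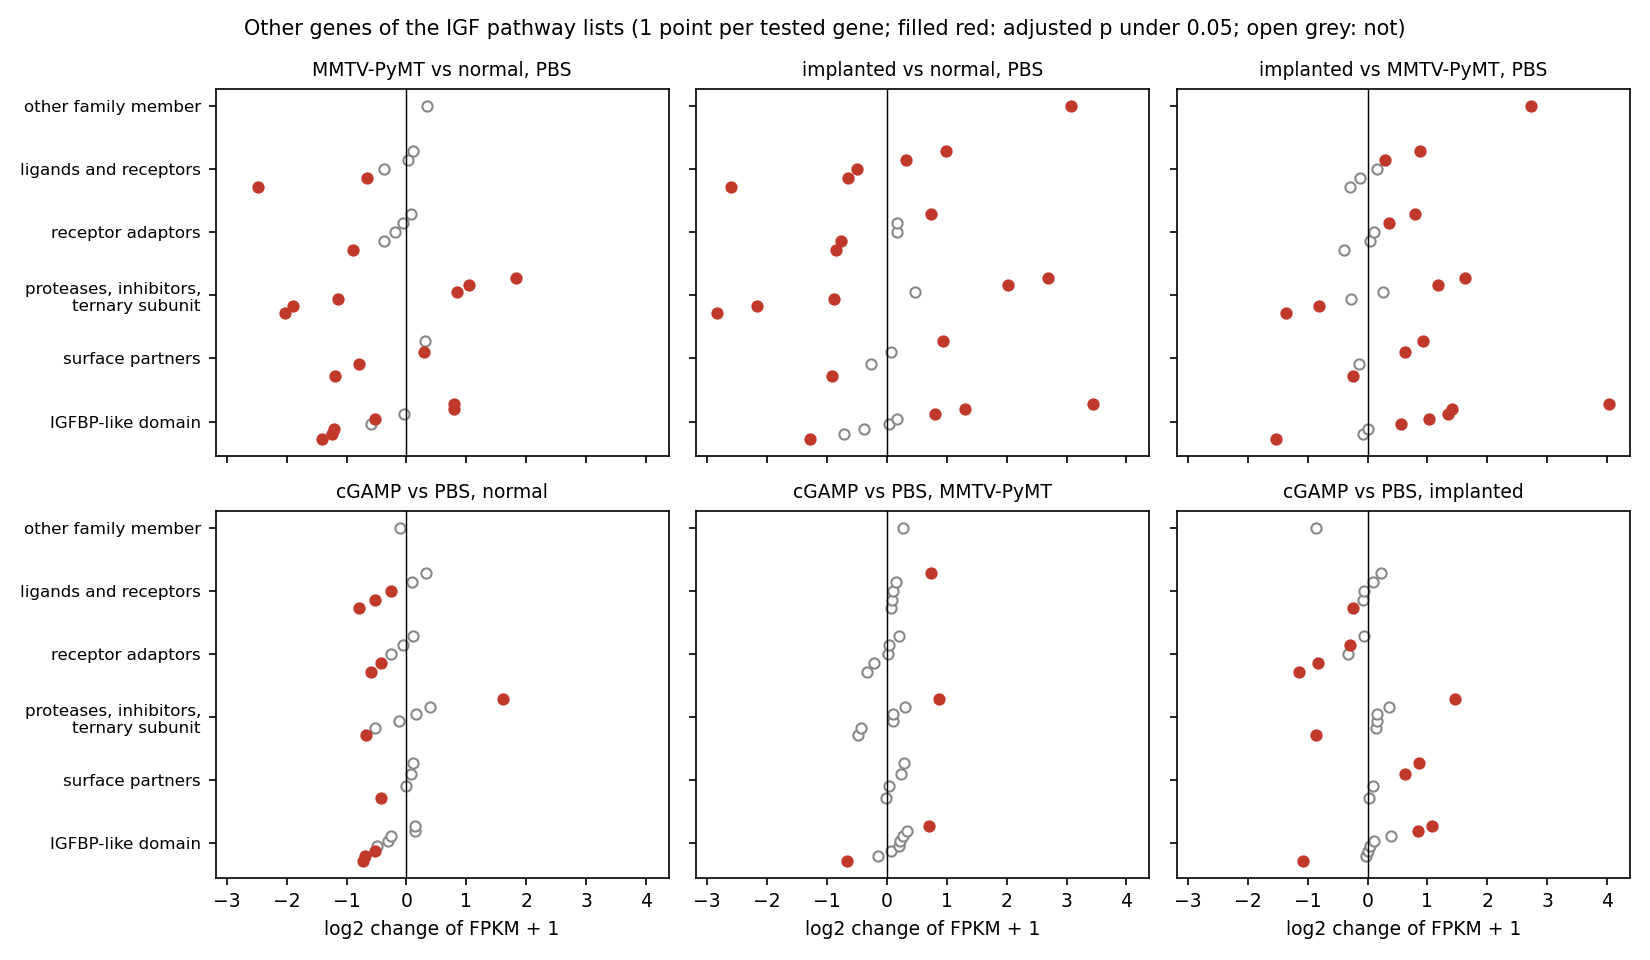
Log2 changes of FPKM + 1 for 29 tested genes of 6 IGF pathway lists in 6 comparisons, with 1 point for each gene, filled where the adjusted p was under 0.05. The widest spread was between tissues, up to 4.04 for Esm1 in implanted against MMTV-PyMT ECs, and Stc1 was the highest point after cGAMP in each tissue.

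For each of the 4 genes, the 3 tested genes with the highest Pearson's r of log2(FPKM + 1) over the 18 libraries were taken as the most alike. For Igfbp3 these were Vwa1 (0.992), a matrix protein, Mcam (0.988), an adhesion molecule of vessels, and Adam12 (0.987). For Igfbp7 they were Jak3 (0.979), a kinase of cytokine receptors, Prdm1 (0.977), a transcription factor, and Ptpre (0.976), a phosphatase. For Igfbp5 they were Me1 (0.983), Aass (0.982) and Papss1 (0.981), which are metabolic enzymes. For Igfbp4 they included Gimap8 (0.962) and Slc52a3 (0.962). Vwa1 had the tissue order of Igfbp3, with mean FPKM of 26.3, 45.8 and 105 in normal, MMTV-PyMT and implanted PBS ECs, and Me1 had that of Igfbp5, with 6.32, 25.3 and 13.6. These values are a description over 18 libraries in 6 groups, chosen among all tested genes.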

How the data were processed

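RNA-seq of CD31+ ECs from 18 libraries was analysed. Per the study's methods and the submitters' processing notes, the authors checked reads with FastQC, aligned them with STAR 2.7 to mm10 and counted them with HTSeq, and deposited FPKM values. How FPKM was derived and the strand setting are not given in the sources used here. The FPKM steps gave whole reads for 16165 of 16248 genes (99.49%, tolerance 0.05 reads), and the deposited scaling followed median-of-ratios size factors. Of the columns, 12 name a tumour type, and the other 6 carry treatment and number alone and were taken as normal. Genes at 1 FPKM or more in at least 3 libraries (13983) were tested on log2(FPKM + 1), which understates changes of low genes, with limma 3.58.1 in R 4.3.3 (1 mean per group, moderated with a trend, Benjamini-Hochberg adjustment). The fitting script was tested on simulated data. The study gives 3 mice per group and 3 experiments but not which library is which, so p-values measure the spread between these libraries. The genes, lists and tests were chosen with earlier results of these data known. Other genes were named as the 3 of the pathway lists with the largest passing change per comparison and the 3 with the highest correlation per member, beside those said to be chosen after their values were seen. For Igfbp4, 1 of these is not reported here. Alternatives were another pseudocount and filters, quantile, total-read and endothelial-marker scaling, voom on the recovered reads, no trend, only the groups compared, a replicate block, and leaving out each library. Arterial, venous, capillary and lymphatic markers were also summed and are given with the other observations.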

Additional observations from a re-analysis of the deposited data

Results flagged for a closer look

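By the interaction term of the limma fit, on the log2 scale, the effect of cGAMP differed between tissues for 2 of the 4 genes. Also given are 9 genes of the pathway lists, 3 per comparison, named by the size of their change. Of all 29 tested pathway genes, the effect was higher for 3 and lower for 0 in MMTV-PyMT against normal ECs (5.48% and 2.90% over all genes). In implanted against normal ECs these numbers were 7 and 1 (12.5% and 6.09%), and against MMTV-PyMT ECs 2 and 4 (7.34% and 3.72%). In MMTV-PyMT against normal ECs the effect was higher for Igfbp3 by 1.03, Igfbp4 by 0.80, Igf2 by 0.87, Grb10 by 0.79 and Igf2r by 0.42. Of these, Igf2 was near the floor in MMTV-PyMT ECs, with 11 to 28 reads per library. In implanted against normal ECs it was higher for Ccn2 by 1.13, Ccn3 by 1.11 and Crim1 by 0.93. In implanted against MMTV-PyMT ECs the difference was −1.35 for Esm1, −0.93 for Irs1 and −0.86 for Gab1. With libraries scaled to the summed endothelial markers 10 of these 11 no longer passed, the exception being Crim1. With quantile normalization Crim1 and Igf2r no longer passed, and Igf2r did not pass with scaling by total reads. The Esm1 call (adjusted p = 0.0411) was also lost with the replicate block (0.0541), a pseudocount of 0.1 (0.0588) and only the groups compared (0.0882), and when any of 10 libraries was left out, in a range of 0.00952 to 0.105 over all alternatives (limma). Groups of 3 libraries were not tested for single outlying libraries.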

How the results depend on the processing

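Of 1008 alternative values for the log2 changes of the 4 genes, 935 kept their direction and their side of the threshold, and of 753 for named pathway genes 704 did. Leaving out a library of a group outside a comparison cannot move its log2 change, only the spread. The cause of the changes below was not tested. For the effect of cGAMP in MMTV-PyMT against normal ECs, 1 of the 4 genes passed with a pseudocount of 0.1, no filter, no trend or the replicate block, and 0 with endothelial scaling. The replicate block gave Igfbp3 1.03 (adjusted p = 0.0738, in a range of 0.00709 to 0.115). The correlation of deviations from the group mean was −0.345 to 0.294 over 45 pairs of same-numbered libraries, 8 of them over 0.1. Over 90 pairs of different number it was −0.333 to 0.369, with 19 over 0.1. With 3 libraries per group these values cannot tell whether some libraries shared an experiment. With a mean FPKM of at least 5, which tests fewer genes, 2702 (cGAMP in normal), 3301 (cGAMP in implanted), 4543 (MMTV-PyMT against normal), 4133 (implanted against normal) and 3920 (implanted against MMTV-PyMT) genes passed. Quantile normalization and total-read scaling each passed 2 of the 4 genes for cGAMP in implanted ECs and 1 for its effect in implanted against MMTV-PyMT ECs, and total reads passed 3303 genes for cGAMP in MMTV-PyMT ECs. Quantile normalization reversed Igfbp7 for cGAMP in implanted ECs (−0.133) and Igfbp4 (−0.169) and Igfbp7 (−0.344) for the effect in implanted against normal ECs. Total reads reversed Igfbp5 (−0.116) and Igfbp7 (−0.042) for the effect in MMTV-PyMT against normal ECs, and Igfbp4 (−0.002) and Igfbp7 (−0.254) in implanted against normal ECs. Endothelial scaling, chosen after seeing the data, passed 2 of the 4 genes for cGAMP in normal ECs and 2 in implanted against MMTV-PyMT ECs. It passed 2417 genes for cGAMP in normal and 3631 in implanted ECs, and 621, 1060 and 537 for the 3 differences between effects. It reversed Igfbp4 for cGAMP in MMTV-PyMT ECs (−0.036) and in implanted against MMTV-PyMT ECs (−0.060). Among effects it reversed Igfbp5 (−0.394) and Igfbp7 (−0.320) in MMTV-PyMT against normal, Igfbp4 (−0.013) and Igfbp7 (−0.264) in implanted against normal, and Igfbp7 (0.056) in implanted against MMTV-PyMT ECs. Fits of only the groups compared passed 2 genes for cGAMP in normal and 0 in implanted ECs. Leaving out a library gave 0 to 1 of the 4 genes and 867 to 2086 genes for cGAMP in MMTV-PyMT ECs, 0 to 3 of the 4 for cGAMP in implanted ECs, 0 to 2 and 626 to 1538 genes for the effect in MMTV-PyMT against normal ECs, and 0 to 1 for implanted against MMTV-PyMT ECs. It reversed effects of Igfbp5 (−0.143 to 0.130, −0.468 to 0.038 and −0.483 to 0.023) and Igfbp7 (−0.139 to 0.226 in implanted against normal and −0.228 to 0.137 in implanted against MMTV-PyMT ECs), none past the threshold. Read shares not divided by length moved 18 of 24 family shares.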

Other observations

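The ratio of Igfbp3 to Igfbp7 within a library was 0.289, 0.288 and 0.288 in the 3 MMTV-PyMT PBS libraries, 0.0704 to 0.0892 in normal PBS and 1.05 to 1.52 in implanted PBS libraries. After cGAMP it was 0.345 to 0.486 in MMTV-PyMT, 0.0587 to 0.0647 in normal and 1.32 to 1.41 in implanted libraries. The ranges of PBS and cGAMP did not overlap in normal ECs, where the ratio was lower after cGAMP, nor in MMTV-PyMT ECs, where it was higher, and overlapped in implanted ECs. The ratios were chosen after their values were seen and were not tested.

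Lists of vessel types also differed between the groups that the 4 genes were compared over. Summed arterial markers were 244 to 263 FPKM in normal PBS and 113 to 148 in normal cGAMP libraries, 76.0 to 93.3 in MMTV-PyMT PBS and 157 to 159 in implanted PBS libraries. Summed capillary markers were 718 to 967, 296 to 307 and 342 to 368 FPKM in normal, MMTV-PyMT and implanted PBS libraries. Venous markers were 101 to 136 FPKM under PBS and 218 to 267 after cGAMP in MMTV-PyMT libraries. Of these 4 venous markers, Selp (24.3 to 45.3 under PBS, 109 to 135 after cGAMP) and Ackr1 (17.3 to 24.9, 52.9 to 63.5) were higher after cGAMP, while Nr2f2 (4.27 to 6.11, 3.36 to 5.20) and Ephb4 (55.3 to 62.3, 52.4 to 64.4) overlapped. Lymphatic markers (5 of 7 in the table) were 73.3 to 85.6 FPKM in normal and 22.2 to 33.96 in MMTV-PyMT PBS libraries. The part of these lists in the values of the 4 genes was not tested.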
